A study of Mus musculus with 10 samples.

Results

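The genes described here encode 36 enzymes and enzyme subunits that make serine, one-carbon units, methionine derivatives, purines, pyrimidines and polyamines. They were chosen by name from a table of 22553 mouse genes, and all 36 were found there. Regulatory T cells (Treg) are the CD4 T cells, marked by the transcription factor Foxp3, that restrain immune responses. In the knockout (KO) group, with genotype Tfamfl/flFoxp3Yfp-Cre/+, both alleles of Tfam were floxed. In the control group, Tfamfl/+Foxp3Yfp-Cre/+, 1 allele was floxed, so control Treg also lose 1 copy where Cre acts. YFP-positive Treg were sorted out of the spleens and lymph nodes of C57BL/6 female littermates for poly(A) RNA. No source used here gives the age of the mice. Each library pooled cells of 2 to 3 mice, and there were 3 libraries per genotype. Cre is driven by Foxp3, which lies on the X chromosome. These heterozygous females therefore also hold Treg in which the Cre allele is silent, and the YFP sort leaves those cells out.

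Serine made from a glycolytic intermediate, or taken up, gives a carbon unit to folate when it is turned into glycine. Mitochondrial folate enzymes pass that unit on as formate, and cytosolic folate enzymes use it to build purines and thymidylate and to remake methionine. TFAM packages and transcribes mitochondrial DNA. In other mouse and human cells, loss of mitochondrial function is known to raise serine and mitochondrial folate enzymes through the transcription factor ATF4. Pyrimidine synthesis has its own link to mitochondria, because dihydroorotate dehydrogenase hands its electrons to the respiratory chain.

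The libraries held between 19087757 and 23794028 counts in KO and between 21419772 and 27490253 in control. Levels are given as CPM, counts scaled to a common library size with TMM factors. Tfam (ENSMUSG00000003923) stood at 15.6, 14.4 and 16.5 CPM in KO replicates 1 to 3, against 25.9, 30.6 and 42.4 CPM in control replicates 1 to 3, with no overlap. Its log2 fold change was -1.09 (edgeR adjusted p = 0.020, n = 3 libraries each). The Treg markers Foxp3, Il2ra, Ikzf2, Ctla4, Cd3e and Cd4 summed to 2291.6 to 2491.0 CPM in KO and to 2263.8 to 2554.7 CPM in control. The sum of 11 macrophage markers was 570, 1352 and 496 CPM in KO replicates 1 to 3, against 432, 941 and 512 CPM in control. It was thus highest in the library numbered 2 of each genotype. The fitted log2 fold changes of all 11 macrophage markers lay above 0, from 0.23 to 0.49. The sum of 6 B cell markers was 495 to 572 CPM in KO and 659 to 707 CPM in control, and Ighm, which made up most of it, was called lower (edgeR adjusted p = 0.0134). Of the other 5 B cell markers, 3 had fitted values above 0 and 2 below, and 0 were called. Of the Treg and macrophage markers 0 were called by edgeR. With the replicate number as a block, edgeR called 1 of the 6 Treg markers lower, against 4.39% of all tested genes. It was Ctla4, an inhibitory receptor, at a log2 fold change of -0.22 (edgeR adjusted p = 0.0432). The same fit called 3 of the 11 macrophage markers higher (Vcam1, Slc40a1 and Adgre1), against 1.97% of all tested genes. Every marker had counts in some library. The part of other cells' RNA in the results was not tested. In bulk RNA, fewer cells of a type and less RNA per cell cannot be told apart.

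In Tfam KO Treg the RNA of nearly all these synthesis genes lay close to its control level. The gene with the widest difference was Odc1, the first enzyme of polyamine synthesis, whose mean was 37.7 CPM in KO and 62.4 CPM in control. The next smallest p-values were those of Mat2a, which makes S-adenosylmethionine, at a log2 fold change of 0.18, and of Psat1 in serine synthesis, at -0.27. A gene was called where its adjusted p over all tested genes was under 0.05. Of the 36 genes, 35 had enough counts to be tested. Aldh1l2 did not. Of the 35, 0 were called lower and 0 higher by edgeR's quasi-likelihood test, against 1.39% lower and 0.1% higher over all 11990 tested genes. At an unadjusted p under 0.05, 2 were lower (Odc1 and Psat1) and 1 higher (Mat2a), against 7.22% and 5.4% of all tested genes. By limma-voom 0 of the 35 were called, against 1.13% of tested genes called lower and 0.025% higher. By DESeq2 1 was called lower, namely Odc1, against 2.19% of tested genes, and 0 higher, against 0.634%. With the replicate number as a block, 1 of 35 was called lower by edgeR, again Odc1, against 4.39% of tested genes, and 0 were called higher, against 1.97%. DESeq2 with the block also called Odc1 lower and 0 higher, against 2.5% and 1.15% of tested genes.

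The median log2 fold change of the 35 tested genes was 0.002, beside -0.005 for all tested genes. Fitted values lay below 0 for 17 and above 0 for 18. For 33 of the 35 the 95% interval of the difference stayed within 0.5 of 0 on the log2 scale, a change of 1.41-fold either way. That was 94.3% of them, against 66.5% of all tested genes. Intervals widen at low counts, and the gene sets were not matched for level, so these shares are not a like comparison. The exceptions were Odc1 and Mthfd2l. Mthfd2l, a mitochondrial folate enzyme, had 319 counts over the 6 libraries, which left a wide interval. KO libraries all lay below control libraries for 4 of the 35 (Odc1, Psat1, Ahcy and Mat2b), against 10.4% of tested genes, and all above for 4 (Mat2a, Adsl, Shmt1 and Mtrr), against 8.63%. Both counts stood close to the share among all tested genes. Within same-numbered pairs, 7 of the 35 were lower in KO in all 3, against 23.7% of tested genes, and 8 were higher in all 3, against 21.7%.

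**Figure D1:**
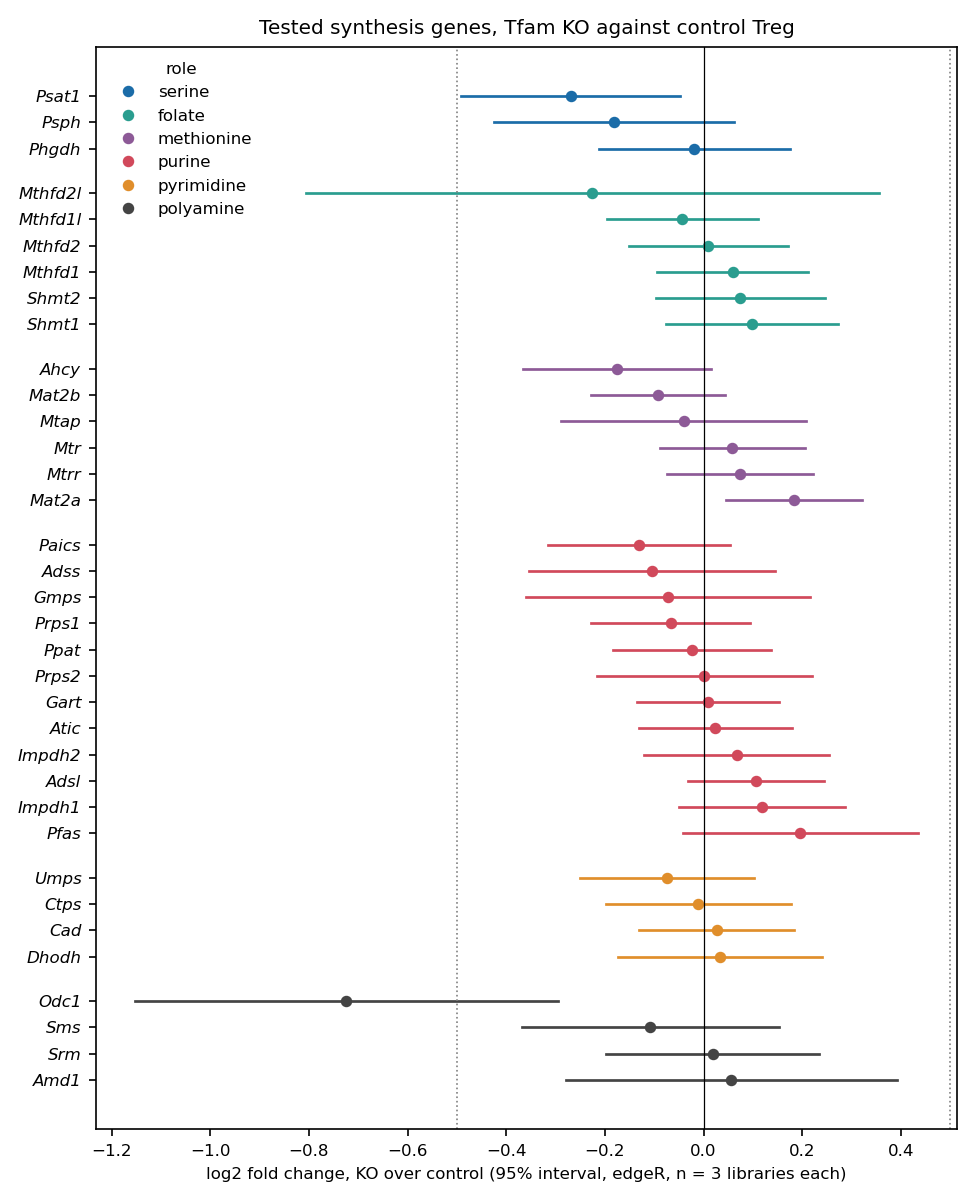
Each point is the log2 fold change of 1 tested gene, KO over control, with its 95% interval from edgeR (3 libraries per group); colours mark the pathway and dotted lines mark -0.5 and 0.5. The intervals of 33 of the 35 genes stay between the dotted lines, while Odc1 sits at -0.72 and Mthfd2l has an interval that reaches -0.81.

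In serine synthesis 3 of 3 fitted values lay below 0 and 0 of 3 genes were called. Phgdh (ENSMUSG00000053398) catalyses the committing step. It stood at 50.6, 56.0 and 45.6 CPM in KO replicates 1 to 3, against 53.2, 50.3 and 50.8 CPM in control, so the groups overlapped. Its log2 fold change was -0.02, with an interval of -0.21 to 0.17. Psat1 (ENSMUSG00000024640), the aminotransferase that follows, stood at 38.7, 39.7 and 35.0 CPM in KO, against 40.1, 50.2 and 46.5 CPM in control. All KO libraries lay below all control libraries, though KO replicate 2 and control replicate 1 were nearly level. The log2 fold change of Psat1 was -0.27 (interval -0.49 to -0.05), and it was not called by edgeR (adjusted p = 0.299) or with the replicate block (adjusted p = 0.0640). Psph (ENSMUSG00000029446), the phosphatase that releases serine, stood at 17.1, 21.0 and 20.6 CPM in KO, against 20.5, 24.0 and 22.0 CPM in control. Its KO value was the lower one in each same-numbered pair, while the groups overlapped (log2 fold change -0.18, edgeR adjusted p = 0.525).

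In the folate cycle, 0 of 6 tested genes were called, and the main mitochondrial enzymes had fitted values within 0.1 of 0. Shmt2 (ENSMUSG00000025403) takes the carbon unit from serine inside mitochondria. It stood at 108.9, 106.0 and 102.2 CPM in KO, against 107.9, 91.6 and 101.6 CPM in control (log2 fold change 0.07, interval -0.10 to 0.25). Mthfd2 (ENSMUSG00000005667), the mitochondrial dehydrogenase and cyclohydrolase that is abundant in dividing cells, stood at 60.3, 64.2 and 56.0 CPM in KO, against 58.3, 60.9 and 60.1 CPM in control. The upper end of its interval was 0.17 on the log2 scale, a 1.13-fold rise. Mthfd1l (ENSMUSG00000040675), which releases formate, had a log2 fold change of -0.04 (interval -0.20 to 0.11). Mthfd2l (ENSMUSG00000029376), a relative of Mthfd2, had a log2 fold change of -0.23 (interval -0.81 to 0.35). Aldh1l2 (ENSMUSG00000020256), which burns the folate-bound unit to carbon dioxide in mitochondria, had 4, 5 and 2 counts in KO and 5, 0 and 0 counts in control. The 0 in control replicates 2 and 3 allows up to 0.140 and 0.109 CPM, counting error only, so a difference was not detectable at this depth. Of the cytosolic enzymes, Shmt1 (ENSMUSG00000020534) stood at 20.6, 21.1 and 22.2 CPM in KO, against 19.7, 19.8 and 20.05 CPM in control. Its groups did not overlap, at a log2 fold change of 0.10 (edgeR adjusted p = 0.645). Mthfd1 (ENSMUSG00000021048), which joins formate to folate in the cytosol, had a log2 fold change of 0.06 (interval -0.09 to 0.21).

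In the methionine cycle, 3 fitted values lay below 0 and 3 above, and 0 of 6 genes were called. Mat2a (ENSMUSG00000053907), the catalytic subunit that makes S-adenosylmethionine, stood at 125.9, 116.6 and 124.1 CPM in KO, against 109.5, 105.8 and 107.4 CPM in control. Every KO library lay above every control library. Its log2 fold change was 0.18 (interval 0.05 to 0.32), short of a call by edgeR (adjusted p = 0.255) and with the replicate block (adjusted p = 0.0706). Mat2b (ENSMUSG00000042032), the regulatory subunit of the same enzyme, stood at 128.8, 128.3 and 125.5 CPM in KO, against 130.9, 135.7 and 141.3 CPM in control. These groups did not overlap either, in the other direction (log2 fold change -0.09, edgeR adjusted p = 0.567). Ahcy (ENSMUSG00000027597) clears the S-adenosylhomocysteine left by methylation. It stood at 28.6, 30.7 and 25.7 CPM in KO, against 32.3, 32.2 and 31.4 CPM in control, with no overlap (log2 fold change -0.18, edgeR adjusted p = 0.432). Mtrr (ENSMUSG00000034617), which reactivates methionine synthase, stood at 34.6, 35.6 and 35.9 CPM in KO, against 33.5, 33.7 and 33.7 CPM in control. The 3 control values of Mtrr were nearly identical, and its log2 fold change was 0.07 (edgeR adjusted p = 0.688). Methionine synthase itself, Mtr (ENSMUSG00000021311), had a log2 fold change of 0.06, and Mtap (ENSMUSG00000062937), which recovers the by-product of polyamine synthesis, of -0.04.

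**Figure D2:**
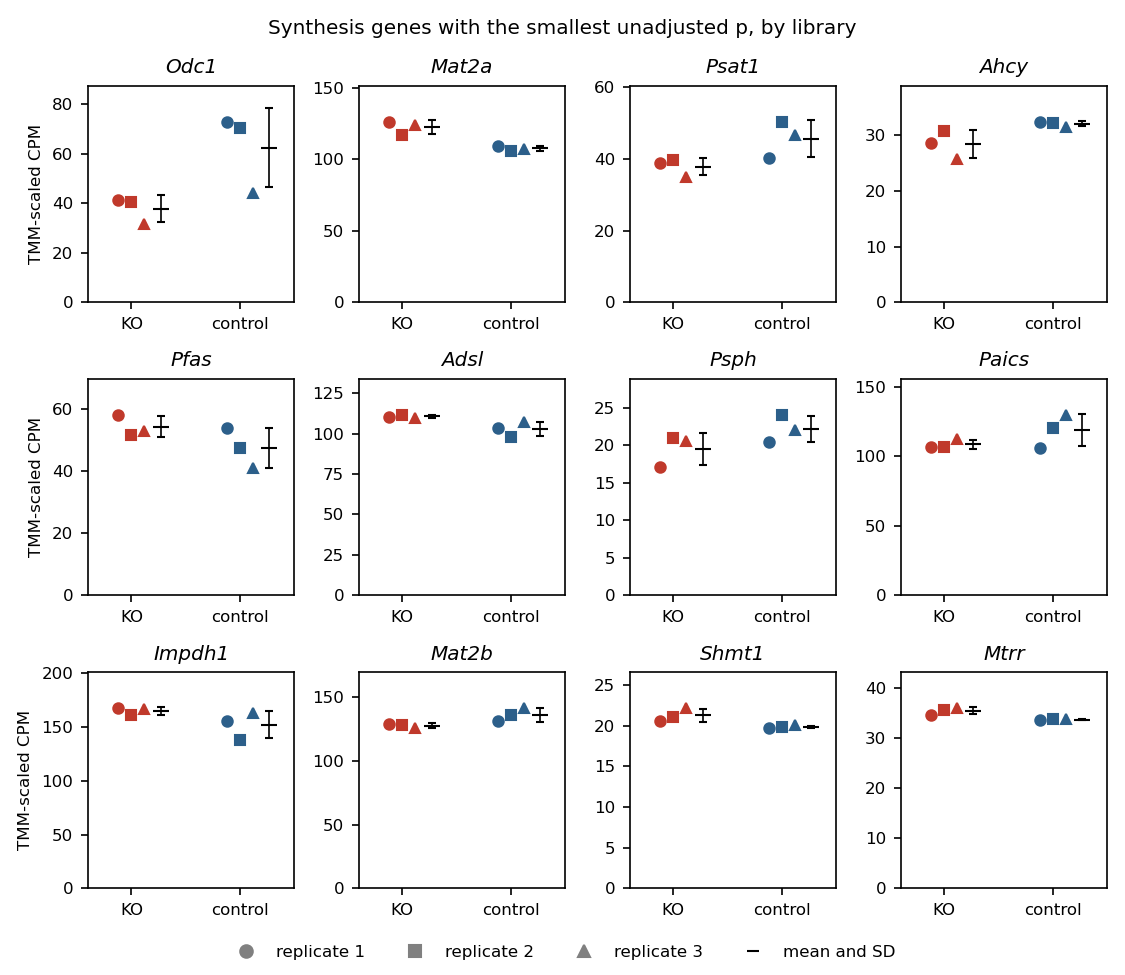
Levels in TMM-scaled CPM of the 12 genes with the smallest unadjusted p, with KO libraries on the left, control libraries on the right and the mean and SD beside each group (n = 3). Every axis starts at 0. Odc1 has KO values of 31.5 to 41.3 CPM and control values of 44.2 to 72.7 CPM, whereas the other panels show groups that differ by a small part of their level.

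Purine synthesis was represented by 12 genes, all tested, of which 0 were called, 5 had fitted values below 0 and 7 above. Each of the 12 intervals lay within 0.5 of 0. Pfas (ENSMUSG00000020899), a middle step of the route to inosine monophosphate, had the highest fitted value, 0.20 (interval -0.04 to 0.43). It stood at 58.0, 51.7 and 53.0 CPM in KO, against 53.7, 47.5 and 40.8 CPM in control. KO was higher in each same-numbered pair, by 0.11, 0.12 and 0.38 on the log2 scale, but the groups overlapped (edgeR adjusted p = 0.482; with the replicate block, adjusted p = 0.106). The value of Pfas was 0.31 without control replicate 1 (edgeR adjusted p = 0.219) and 0.10 without control replicate 3 (edgeR adjusted p = 0.741). Paics (ENSMUSG00000029247), which carries out a later pair of steps, had the lowest fitted value, -0.13 (edgeR adjusted p = 0.549). It stood at 106.8, 106.6 and 112.2 CPM in KO, against 106.2, 120.6 and 129.6 CPM in control, so that the first pair was level and the others were lower in KO. Adsl (ENSMUSG00000022407), which acts in this route and again in making adenosine monophosphate, stood at 110.5, 111.4 and 109.7 CPM in KO, against 103.2, 97.9 and 106.9 CPM in control. Its groups did not overlap (log2 fold change 0.11, edgeR adjusted p = 0.515).

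The entry and exit points of the purine route showed the same small spread. Prps1 and Prps2, which make the activated ribose for all nucleotides, had log2 fold changes of -0.07 and 0.00. Prps1 (ENSMUSG00000031432) has a close copy in the table, Prps1l3, with a log2 fold change of -0.06. No source used here says how the counting split reads between them, so the level of either is uncertain. Ppat (ENSMUSG00000029246), the committing enzyme, had a value of -0.02, Gart 0.01 and Atic 0.02. Toward guanosine monophosphate, Impdh1 (ENSMUSG00000003500) stood at 167.3, 160.8 and 166.5 CPM in KO, against 155.1, 137.8 and 162.6 CPM in control. Its groups overlapped (log2 fold change 0.12, edgeR adjusted p = 0.552). Impdh2, the isoform known to be induced in dividing lymphocytes, had a log2 fold change of 0.07 (interval -0.12 to 0.26). Gmps (ENSMUSG00000027823), the last enzyme of that branch, was highest in replicate 3 of both genotypes. It stood at 57.6, 59.7 and 72.0 CPM in KO, against 58.1, 62.6 and 78.1 CPM in control. Adss (ENSMUSG00000015961), which leads to adenosine monophosphate, ran alike at 124.5, 138.7 and 156.0 CPM in KO, against 131.4, 151.9 and 167.3 CPM in control. The values of Adss were lower in KO within each pair (log2 fold change -0.10, edgeR adjusted p = 0.743). With 1 library left out, the value of Adss lay between -0.19, without KO replicate 3, and -0.02, without KO replicate 1 or control replicate 3.

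Pyrimidine synthesis had the narrowest span, with 4 fitted values between -0.07 and 0.03 and 0 of 4 called. Cad (ENSMUSG00000013629), the multifunctional enzyme of the first steps, stood at 211.2, 206.2 and 198.3 CPM in KO, against 215.3, 188.6 and 200.5 CPM in control. Dhodh (ENSMUSG00000031730), the step that needs the respiratory chain, stood at 27.1, 24.2 and 26.8 CPM in KO, against 23.9, 24.5 and 27.8 CPM in control. The groups overlapped for both. The log2 fold change of Dhodh was 0.03, with an interval of -0.17 to 0.24. Umps (ENSMUSG00000022814), which completes uridine monophosphate, had a value of -0.07, and Ctps (ENSMUSG00000028633), which makes cytidine triphosphate, of -0.01.

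Among the polyamine enzymes, Odc1 (ENSMUSG00000011179) stood apart from the rest. It encodes ornithine decarboxylase, the regulated first step that turns ornithine into putrescine. It stood at 41.3, 40.3 and 31.5 CPM in KO replicates 1 to 3, against 72.7, 70.3 and 44.2 CPM in control replicates 1 to 3. All KO libraries lay below all control libraries, and replicate 3 was the lowest library of each group. The log2 fold change was -0.72 (interval -1.15 to -0.30), a KO level of 0.605 of control. Within same-numbered pairs it was -0.82, -0.80 and -0.49. Odc1 missed the call without the block (edgeR adjusted p = 0.138) and was called lower with it (edgeR adjusted p = 0.00014). DESeq2 called it both without the block (adjusted p = 0.00392) and with it (adjusted p = 1.16e-08), and limma-voom did not (adjusted p = 0.183). Without control replicate 3 it was also called by edgeR without the block (log2 fold change -0.92, adjusted p = 0.0114). With any other single library left out it was not called, at log2 fold changes between -0.79 and -0.59 and adjusted p between 0.243 and 0.414. Without both libraries numbered 2, which held the most macrophage RNA, the value was -0.68 (edgeR adjusted p = 0.481).

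The enzymes after Odc1 had fitted values nearer 0, and 0 of the 3 were called in any fit. Spermidine synthase, Srm (ENSMUSG00000006442), stood at 58.0, 56.5 and 60.0 CPM in KO, against 56.5, 50.6 and 65.2 CPM in control (log2 fold change 0.02, interval -0.20 to 0.23). Spermine synthase, Sms (ENSMUSG00000071708), had a log2 fold change of -0.11 (interval -0.37 to 0.15). Amd1 (ENSMUSG00000075232), which supplies the aminopropyl group, had one of 0.06 (interval -0.28 to 0.39). Its copy Amd2 was listed at 0 in all libraries. How the counting treated reads that match both genes is not given, so the level of Amd1 is uncertain. Over the libraries, the highest level of a gene was 1.07 to 2.31 times its lowest, with a median of 1.19 over the 35 genes. It passed 1.5 for 2 of them, Odc1 and the sparsely counted Mthfd2l.

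Promoter sequences are shown for the genes with the smallest p in each direction, Odc1 and Mat2a, and for Paics, because its first part overlaps that of Ppat. The Paics window ends at 76951301 on the plus strand, and the Ppat window begins at 76951579 on the minus strand. From its start each gene runs across the start of the other and then away from it, so the Paics window lies downstream of the Ppat start. Each run is the 250 bases before the RefSeq start on GRCm38.p6, on the strand of the gene. Capitals mark motifs that were searched on both strands. A GC box was searched as GGGCGG, the binding letters of SP1, and a CCAAT box by the letters of its name. A TATA box was searched as TATAAA, the core of many start sites. An E-box was searched as CACGTG, a palindrome.
Odc1, chr12:17544623-17544872, plus strand: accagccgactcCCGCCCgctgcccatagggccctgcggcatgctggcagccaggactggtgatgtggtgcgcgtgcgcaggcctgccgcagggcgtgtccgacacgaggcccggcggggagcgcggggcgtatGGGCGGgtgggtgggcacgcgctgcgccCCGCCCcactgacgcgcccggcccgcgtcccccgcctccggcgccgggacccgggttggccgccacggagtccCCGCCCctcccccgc
Mat2a, chr6:72439557-72439806, minus strand: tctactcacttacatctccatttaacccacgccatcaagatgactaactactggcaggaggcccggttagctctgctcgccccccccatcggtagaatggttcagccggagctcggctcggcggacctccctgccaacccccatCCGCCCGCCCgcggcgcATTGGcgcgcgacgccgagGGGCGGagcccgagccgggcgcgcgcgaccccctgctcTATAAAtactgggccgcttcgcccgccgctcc
Paics, chr5:76951052-76951301, plus strand: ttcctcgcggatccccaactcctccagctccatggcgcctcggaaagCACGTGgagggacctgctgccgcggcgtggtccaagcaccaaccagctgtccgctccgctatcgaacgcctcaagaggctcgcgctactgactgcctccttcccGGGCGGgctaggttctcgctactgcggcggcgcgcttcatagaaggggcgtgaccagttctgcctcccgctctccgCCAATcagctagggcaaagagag
The Odc1 window is 80% G or C and holds 4 GC boxes and 0 matches to the other motifs. That of Mat2a holds 3 GC boxes, of which the first pair share bases, with 1 CCAAT box and 1 TATA box. Paics has 1 E-box, 1 GC box and 1 CCAAT box. RefSeq windows were at hand for 32 of the 36 genes, 37 windows in all. A GC box was in 28 of the 37, against 32.7% of all 32851 windows, and a CCAAT box in 18, against 33.8%. Some genes had more than 1 window. Counted by gene, a GC box was in 26 of the 32 and a CCAAT box in 17. The windows were not matched for their share of G and C, so the shares of any motif are not a like comparison. A TATA box was in 4 windows, against 12.4% of all. An E-box, the motif bound by MYC, was in 4 (Atic, Impdh2, Paics and Sms), against 6.02% of all windows. An ATF4 element, searched as TGATGNAA on both strands, was in 1, that of Prps1, against 3.45%. A match is a stretch of letters in this window and was not tested as a binding site.

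The regulators best known for these genes gave no called difference, and 0 of 6 tested regulator genes passed. Atf4 (ENSMUSG00000042406) averaged 276.1 ± 50.8 CPM in KO and 276.4 ± 35.5 CPM in control (SD, n = 3 each), a log2 fold change of 0.00 with an interval of -0.33 to 0.33. Its protein is controlled mainly through translation, which RNA does not show. Myc (ENSMUSG00000022346), a known activator of Odc1, Cad and purine genes, averaged 246.7 ± 16.9 CPM in KO and 235.4 ± 25.7 CPM in control (log2 fold change 0.07, interval -0.14 to 0.28). Both were named outside the rule for named genes. Tfe3 and Atf5, with the smallest p of the list, had log2 fold changes of -0.15 and 0.28. Of the 13 other ATF4 targets listed, 7 were tested and 0 called. Cebpb stood at 13.1, 21.1 and 15.4 CPM in KO, against 30.6, 17.3 and 32.3 CPM in control. Cebpb was lower in KO in pairs 1 and 3 and higher in pair 2. Ddit4 had a log2 fold change of 0.13.

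Of 102 related genes in salvage, transport, folate, reductase, polyamine and regulator lists, 100 were matched and 83 tested. By edgeR 0 were called, while 7 were lower and 3 higher at an unadjusted p under 0.05, near the 7.22% and 5.4% of all tested genes. By DESeq2 0 were called as well, against 2.19% of tested genes called lower and 0.634% higher. By limma-voom 0 were called, against 1.13% and 0.025%. With the replicate block, edgeR called 4 lower, against 4.39% of tested genes, and 1 higher, against 1.97%. The 4 lower were Rrm2, Rrm1, Adk and Slc43a1, and the 1 higher was Amt. DESeq2 with the block called 1 of the 83, Rrm2, against 2.5% of tested genes called lower and 1.15% higher. The median log2 fold change of the 83 was -0.03.

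Ribonucleotide reductase turns ribonucleotides into the precursors of DNA. Rrm2 (ENSMUSG00000020649), its subunit made in S phase, stood at 9.71, 9.64 and 5.40 CPM in KO, against 13.6, 21.6 and 9.35 CPM in control. The groups overlapped, and KO was lower in each pair (log2 fold change -0.84, edgeR adjusted p = 0.323; with the replicate block, adjusted p = 0.00333). The large subunit Rrm1 stood at 49.8, 50.3 and 45.3 CPM in KO, against 54.7, 67.0 and 54.0 CPM in control (log2 fold change -0.27; edgeR adjusted p = 0.294, with the block 0.0363). Rrm2b, the remaining gene of the reductase list, went the other way, with a log2 fold change of 0.20. It was higher in KO in all 3 pairs and was called in neither edgeR fit. Thymidylate synthase, Tyms, which uses the folate carbon for DNA, had a log2 fold change of -0.46 and was not called with the block (edgeR adjusted p = 0.0606). Adk, adenosine kinase, stood at 35.2, 37.5 and 38.3 CPM in KO, against 39.5, 47.9 and 49.0 CPM in control (log2 fold change -0.30, edgeR adjusted p = 0.0237 with the block). Pnp, which splits purine nucleosides for salvage, stood at 9.12, 9.30 and 9.60 CPM in KO, against 11.2, 12.4 and 12.01 CPM in control, and was not called with the block (edgeR adjusted p = 0.0726). The salvage list as a whole was mixed: of 26 tested genes, 15 had fitted values below 0 and 11 above. At an unadjusted edgeR p under 0.05, 3 of the 26 were lower and 2 higher, against 7.22% and 5.4% of all tested genes. Slc43a1, an amino acid transporter, had a log2 fold change of -0.49 (edgeR adjusted p = 0.0326 with the block). Amt, the aminomethyltransferase of glycine cleavage, stood at 2.95, 2.63 and 2.68 CPM in KO, against 1.65, 1.64 and 1.64 CPM in control (log2 fold change 0.74; edgeR adjusted p = 0.0476 with the block). Gldc, the decarboxylase of the same system, had too few counts to be tested.

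The remaining lists had 0 called genes under either edgeR fit. In methionine salvage, Mri1 and Ahcyl2 had log2 fold changes of -0.14 and 0.13. In polyamine turnover, Eif5a, the protein that spermidine modifies, had one of -0.14 and the antizyme Oaz2 one of -0.17. Among relatives of the enzymes, Gmpr2 had a value of 0.18 and Prps1l3 of -0.06. In the amino acid transport list, where Slc43a1 was called with the block, Slc38a1 was not called and had a log2 fold change of -0.16.

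**Figure D3:**
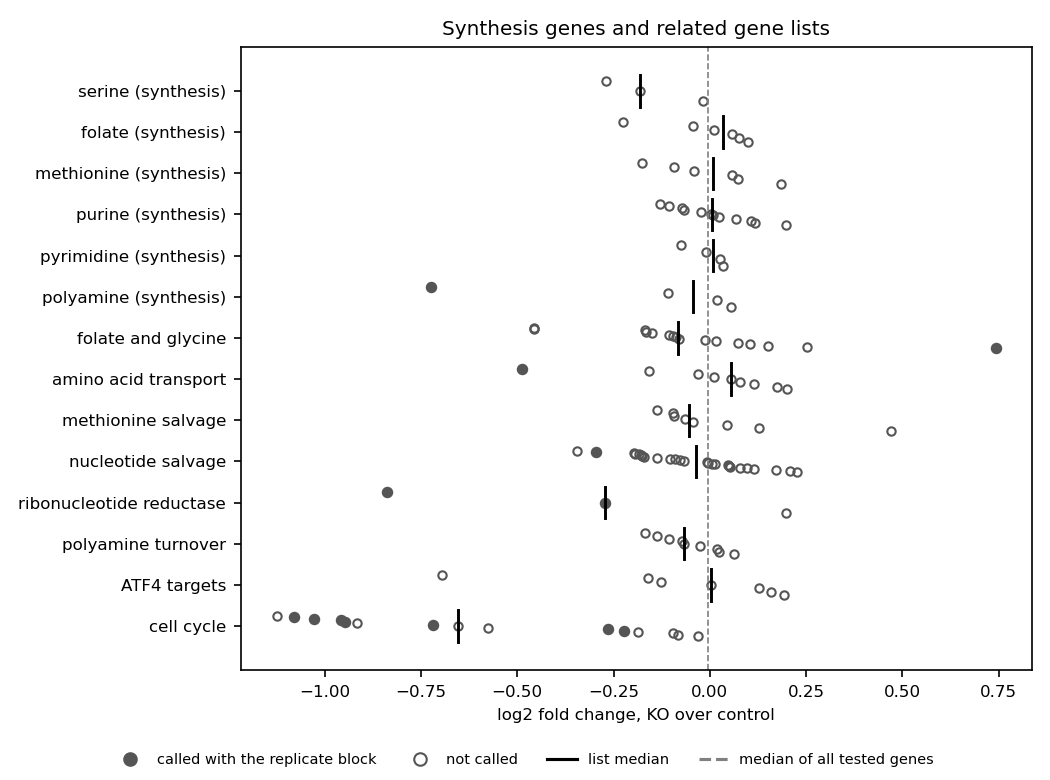
Each point is the log2 fold change of 1 tested gene, KO over control, by gene list, with the 6 lists of synthesis genes at the top. Filled points were called by edgeR with the replicate block. Black bars are list medians and the dashed line is the median of all tested genes, -0.005. Odc1 is the filled point at -0.72 in the polyamine synthesis list, and the cell cycle list has a median of -0.65.

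Fitted values of genes of cell division lay below 0 as well. Of 15 cell cycle genes, 0 were called by edgeR without the block and 3 were lower at an unadjusted p under 0.05, against 7.22% of tested genes. DESeq2 called 1, Mcm6, against 2.19% of tested genes called lower and 0.634% higher. By limma-voom 0 were called, against 1.13% and 0.025%. DESeq2 with the block called 6, against 2.5% lower and 1.15% higher. With the block, edgeR called 7 lower and 0 higher, against 4.39% and 1.97% of tested genes. All 15 fitted values without the block lay below 0, with a median log2 fold change of -0.65, beside -0.005 for all tested genes. In all 3 pairs 14 of the 15 were lower in KO, against 23.7% of tested genes. Mki67, the proliferation antigen, stood at 56.7, 57.8 and 23.9 CPM in KO, against 84.4, 147.2 and 38.4 CPM in control. It was lower in KO within each pair and overlapped between the groups (log2 fold change -0.96; edgeR adjusted p = 0.444, with the block 0.000919). The replicative helicase subunit Mcm6 stood at 156.9, 157.9 and 152.7 CPM in KO, against 183.9, 196.0 and 181.3 CPM in control, with no overlap (log2 fold change -0.26; edgeR adjusted p = 0.0968, with the block 0.0162). Ccnb1, a mitotic cyclin, had a log2 fold change of -1.12 (edgeR adjusted p = 0.375). The summed level of the 15 genes was 808, 822 and 644 CPM in KO replicates 1 to 3, against 928, 1070.3 and 750.2 CPM in control, lowest in replicate 3 of each group, as Odc1 was. The part of cell division in the Odc1 and reductase values was not tested. The summed level of the 36 synthesis genes was 2563, 2566 and 2596 CPM in KO, against 2544, 2517 and 2701 CPM in control, and these overlapped.

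**Figure D4:**
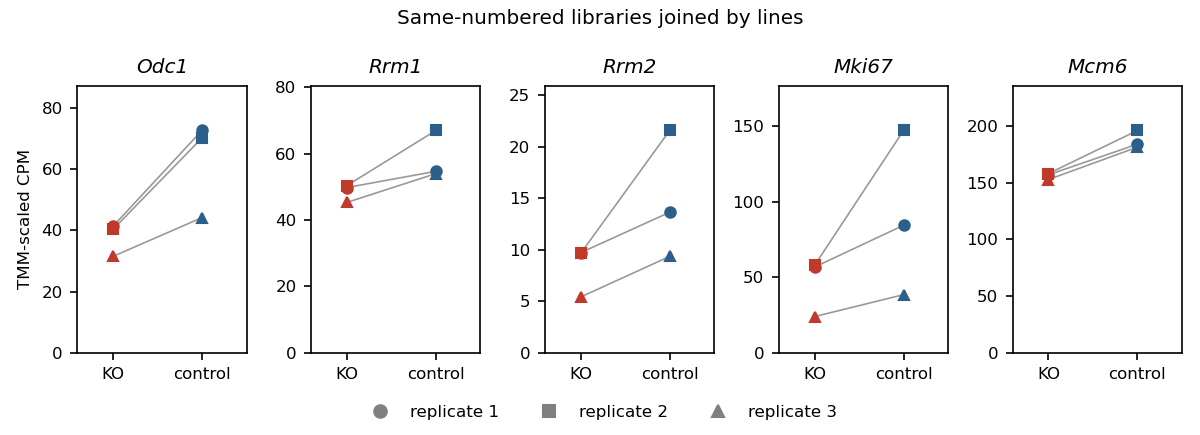
Levels in TMM-scaled CPM of Odc1, the reductase genes Rrm1 and Rrm2 and the cell cycle genes Mki67 and Mcm6, with KO on the left, control on the right and same-numbered libraries joined. The reductase gene Rrm2b, higher in KO in all 3 pairs, is not shown. Every axis starts at 0. In all 5 panels each of the 3 lines is lower at the KO end.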

How the data were processed

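The authors deposited 1 table of read counts per Ensembl gene with 1 column per RNA library, described as HTSeq counts per the labels. Besides HTSeq, the submitters' processing notes list HISAT2, Cufflinks, DESeq2 and the builds mm10 and mm9 without roles. No source used here gives the annotation or the strand setting, so overlapping and antisense genes cannot be told apart. ATAC-seq libraries were not analysed here. Symbols were matched for 22522 of 22553 gene IDs. Where a listed symbol matched no ID or 2 IDs (Dhfr2 and Ddit3), the gene was left out.

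The test was edgeR 4.0.16's quasi-likelihood test (R 4.3.3), KO over control, with Benjamini-Hochberg adjustment over the 11990 genes that filterByExpr left (minimum count 10, minimum total 15). TMM factors were 0.990 to 1.03. Standard errors and 95% intervals came from the F statistic. The fit was checked on simulated counts. DESeq2 1.42.0, limma-voom (limma 3.58.1), other scaling, no filter, a replicate block and leaving out each library were the alternatives. DESeq2 with the block, and leaving out both libraries numbered 2, were added after seeing the data.

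Deviations from the group means of same-numbered libraries correlated at 0.30, 0.58 and 0.54 over genes for numbers 1 to 3, so the numbers were taken to pair the libraries. This comes from the data, as the labels do not say what a number marks. No 2 libraries of a group agreed within counting noise (chi-square per degree of freedom 8.75 to 27.4). Since each library is a pool, p-values reflect how much these pools differ, in part perhaps for technical reasons. A count of 3 equals 0.109 to 0.157 CPM, which covers counting error only.

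The synthesis genes and all lists were chosen with earlier results of these data known. Values by library are given for the genes called in either edgeR fit and in any case for the 12 with the smallest unadjusted p. Those of Phgdh, Shmt2, Mthfd2, Cad, Dhodh, Gmps, Adss and Srm, and the counts of Aldh1l2, were given outside that rule. Of each related list, up to 4 called genes or else the 2 with the smallest unadjusted p were named. Some further genes, among them Atf4, Myc, Mki67, Gldc, Rrm2b, Ighm, Ctla4 and Amd2, were named for their role after values were seen.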

Additional observations from a re-analysis of the deposited data

How the results depend on the processing

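Of the 35 tested synthesis genes, 22 kept the sign of their fitted value in all 13 alternatives, and 1, Odc1, was called in any of them. The number called lower was 0 in the main edgeR fit. It was 1 with DESeq2, with the replicate block in edgeR and with the block in DESeq2, and 0 to 1 with 1 library left out. The median log2 fold change of the 35 stayed between -0.03 and 0.03. Of all 11990 genes, 167 were lower and 12 higher in the main edgeR fit. The numbers were 262 and 76 by DESeq2, 526 and 236 with the replicate block, and 300 and 138 with the block in DESeq2. With limma-voom 3 were higher. With 1 library left out the numbers were 26 to 166 lower and 0 to 10 higher. Without both libraries numbered 2 they were 54 lower and 0 higher, and Tfam, at -1.09, was not called (edgeR adjusted p = 0.123). Tfam lay between -1.22 and -0.87 with 1 library left out and lost its call when control replicate 2, or a KO library, was left out. The replicate block changed no call of a synthesis gene but that of Odc1. Signs turned for 13 genes with no call in any fit. Without both libraries numbered 2 the log2 fold changes were -0.016 for Amd1, -0.019 for Atic, -0.023 for Cad, 0.015 for Ctps, -0.0093 for Gart, -0.026 for Mthfd2, 0.019 for Mthfd2l, 0.0068 for Ppat, -0.029 for Prps2 and -0.044 for Srm. With 1 library left out the ranges were -0.036 to 0.201 for Amd1, -0.026 to 0.075 for Atic, -0.019 to 0.090 for Cad, -0.067 to 0.027 for Ctps, -0.0076 to 0.056 for Gart, -0.178 to 0.064 for Gmps, -0.154 to 0.034 for Mtap, -0.029 to 0.058 for Mthfd2, -0.085 to 0.051 for Phgdh, -0.055 to 0.015 for Ppat, -0.069 to 0.104 for Prps2 and -0.065 to 0.12 for Srm. The cause was not tested; in the fits that leave out libraries fewer samples remain. Low counts limit Aldh1l2, Mthfd2l and Amd1, with 16, 319 and 1053 counts over the 6 libraries.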
